A study of Homo sapiens with 7 samples.

Results

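The transcripts of 38 enzymes of glycolysis, the pentose phosphate pathway, the pyruvate dehydrogenase complex and the tricarboxylic acid (TCA) cycle were followed in MEG-01 cells, a human megakaryoblastic leukemia line. The enzymes were chosen by function and matched by gene symbol, and all 38 were found among the 62238 genes of the exon count files. RNA bound by the RNA-binding protein RBM15 had been sequenced after immunoprecipitation (RIP-seq), and RNA-seq had been made from control cells and from cells with RBM15 knockdown. The RIP-seq used 1 library made with normal IgG and 1 made with an anti-RBM15 antibody. The other 2 RIP-seq libraries could not be assigned to an antibody, because their labelled antibody was the opposite of the side on which the deposited comparison placed them. The RNA-seq used 1 library of control MEG-01 cells and 2 libraries of stable MEG-01 lines with lentiviral knockdown, line 1 with shRBM15#1 and line 2 with shRBM15#2. All libraries came from cells labelled as carrying lentiviral transgenes, at passage 5, cultured in RPMI medium containing 10% serum and harvested in exponential phase. The label of the control library names no hairpin, and the knockdown lines were selected with puromycin.

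Glycolysis breaks glucose down to pyruvate in the cytosol, and lactate dehydrogenase then converts pyruvate and lactate into each other. The pyruvate dehydrogenase complex carries pyruvate carbon into the mitochondrial TCA cycle, whose dehydrogenases feed electrons to the respiratory chain. The pentose phosphate pathway branches off at glucose 6-phosphate and yields NADPH and ribose 5-phosphate. Leukemia cells in culture use all of these routes, and several steps have isoenzymes that differ between tissues.

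RBM15, the targeted gene, had 3970 reads in the control library, 1957 in line 1 and 2121 in line 2. After scaling, this was 80.1, 43.6 and 40.6 CPM (counts scaled to the library total after TMM normalization), so both lines were below the control. The log2 fold change was -0.93 with a standard error (SE) of 0.23, and the adjusted p of 0.0909 (edgeR quasi-likelihood test) did not pass the limit of 0.01 or 0.05. The libraries held 41629454 to 53230029 reads on exon bins. Reads that fell in no bin made up 30.4% in line 1, against 21.6% in the control and 21.9% in line 2. Of the cell type markers, 10 of the 12 megakaryocyte markers found had at least 10 reads in some library, whereas the platelet genes GP9 and PF4 stayed below 10 reads in all 3. The 13 erythroid markers summed to 1333 CPM in the control, 7753 in line 1 and 7402 in line 2, and 7 of them passed an adjusted p of 0.05. The 8 granulocyte and monocyte markers summed to 135, 38.8 and 72.2 CPM, and most of the control sum was CTSG, a neutrophil protease. CTSG had 95.6, 3.72 and 8.53 CPM and fell by 3.96 on the log2 scale (adjusted p 0.00427), the only 1 of them called. The fall of the sum was mostly that of CTSG. CSF1R (2.70, 7.07 and 8.24 CPM) and CD14 (0.262, 0.647 and 3.92) were higher in both lines, and LYZ had 35.3, 25.5 and 50.8. The part of these markers in the results on the enzymes was not tested, and in bulk RNA a change in the share of cells of a type and a change of RNA per cell cannot be told apart.

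RBM15 sites were found in transcripts of 19 of the 38 enzymes. Together these enzymes had 20 of the 1515 sites in the deposited list, which holds only sites that had passed the filter of the study. Of all 24887 genes tested for expression, 3.65% had a listed site, and of the 2299 genes with at least 100 CPM in the control library 19.4% had one. Of the 27 enzymes with at least 100 CPM in the control, 17 had a site. No test of this count was made. The enzymes with a site had a median of 366 CPM in the control, with a range of 75.7 to 2357, and those without one had a median of 115, with a range of 3.03 to 1512. The ranges of the enzymes with and without a site overlapped from 75.7 to 1512 CPM.

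**Figure D1:**
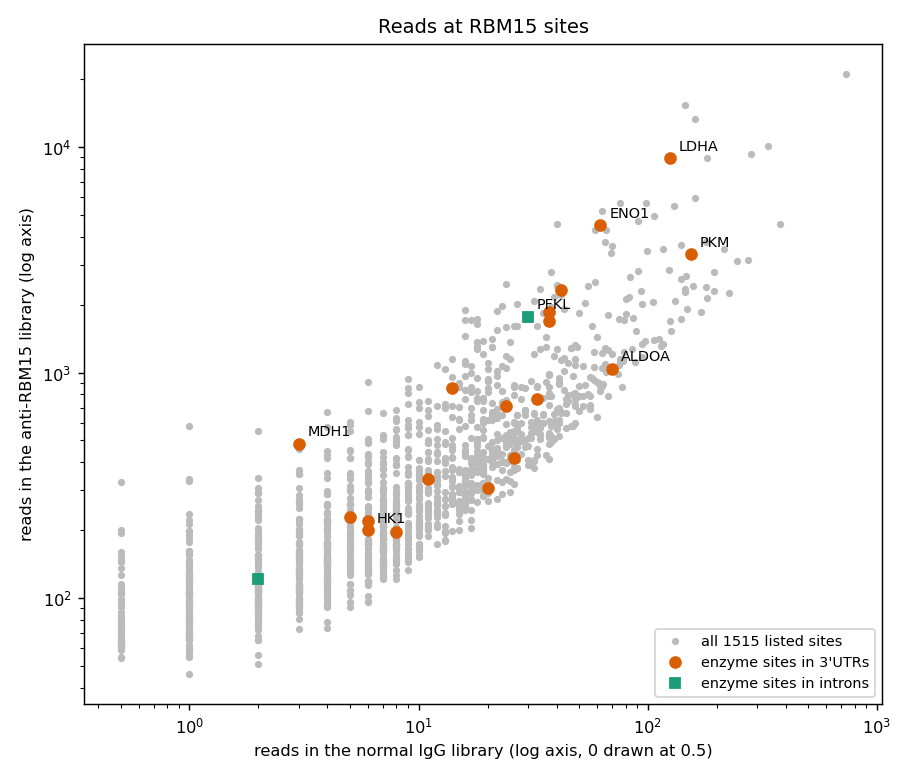
Reads at each of the 1515 listed sites in the normal IgG library (x axis) and in the anti-RBM15 library (y axis), both on log axes. Enzyme sites are drawn in color, and run from 122 anti-RBM15 reads in the LDHB intron to 8911 in the 3'UTR of LDHA.

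By anti-RBM15 reads, the sites of the enzymes were led by LDHA, ENO1, PKM and the 3'UTR site of LDHB. LDHA, which encodes the M subunit of lactate dehydrogenase, had 125 reads with normal IgG and 8911 with anti-RBM15 in its 3'UTR, which ranked 7 among the 1515 sites. LDHB, which encodes the H subunit, had 42 and 2316 reads in its 3'UTR and a second site with 2 and 122 reads in an intron. ENO1, the main enolase outside nerve and muscle, had 62 and 4498 reads. At the 3'UTR sites of LDHA, LDHB and ENO1, the ratios of raw reads, anti-RBM15 over normal IgG, were 71.3-fold (95% exact interval 59.8 to 85.7), 55.1-fold (40.7 to 76.7) and 72.5-fold (56.5 to 94.8). These intervals cover counting error only, since each antibody had 1 library. The list kept only sites with more reads on the RBM15 side, judged from these same reads. More reads with anti-RBM15 at a listed site were therefore largely fixed by that filter, here and in the ratios below, which are not scaled for library depth.

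In upper glycolysis, 5 enzymes had a site. HK1, the hexokinase of most tissues, had 6 reads with normal IgG and 200 with anti-RBM15. GPI, which converts glucose 6-phosphate to fructose 6-phosphate, had 37 and 1688 reads. Of the phosphofructokinases, the rate-limiting kinases of the pathway, PFKL had 30 and 1772 reads at an intronic site and PFKM had 8 and 196 at a 3'UTR site. PFKL thus had the site with the more reads, and PFKP had none. ALDOA, the aldolase of muscle and most dividing cells, had 70 and 1041 reads, which gave the lowest ratio among the enzymes (14.9-fold, 11.7 to 19.2).

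In lower glycolysis, 4 enzymes had a site, ENO1 among them. TPI1, which interconverts the triose phosphates, had 33 reads with normal IgG and 763 with anti-RBM15. PGK1, the first ATP-yielding step, had 37 and 1850 reads, and PKM, pyruvate kinase, had 154 and 3357. At these sites the ratios were 23.1-fold (16.3 to 33.8) for TPI1, 50-fold (36.1 to 71.2) for PGK1 and 21.8-fold (18.5 to 25.8) for PKM, so the interval of PGK1 did not meet that of PKM or TPI1. GAPDH, which had the highest CPM of the enzymes without a site (1512 in the control), PGAM1, ENO2 and ALDOC had none in the list.

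All 4 of the enzymes listed here for the pyruvate dehydrogenase complex had a site in the 3'UTR, as did PDHX, its E3-binding protein, in the wider list (8 reads with normal IgG and 183 with anti-RBM15). PDHA1 and PDHB, the E1 subunits that decarboxylate pyruvate, had 11 and 6 reads with normal IgG and 337 and 219 with anti-RBM15. DLAT, the E2 acetyltransferase core, had 20 and 309 reads, and DLD, the E3 subunit that this complex shares with others, had 24 and 709. The middle of all 4 sites lay less than 300 bases after the stop codon.

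In the pentose phosphate pathway, 1 of the 3 enzymes had a site. PGD, the second NADPH-yielding enzyme of the pentose phosphate pathway, had 14 reads with normal IgG and 853 with anti-RBM15, whereas TKT and TALDO1 had no site. Of the 14 TCA cycle enzymes, 3 had a site. These were IDH3A, the catalytic subunit of the NAD-dependent isocitrate dehydrogenase, with 5 and 229 reads, DLST, the E2 subunit of the 2-oxoglutarate dehydrogenase complex, with 26 and 416, and MDH1, the cytosolic malate dehydrogenase, with 3 and 484. MDH1 had the highest ratio among the enzymes, 161-fold, with a wide interval of 54.9 to 785 at its 3 normal IgG reads. CS, IDH1, IDH2, IDH3B, IDH3G, OGDH, SUCLG1, SUCLG2, SUCLA2, FH and MDH2 had no listed site.

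Summed over the 20 sites, 715 reads were counted with normal IgG and 30270 with anti-RBM15, a ratio of 42.3 (39.3 to 45.7). The same ratio over all 1515 sites was 28.5, so the ratio at the enzyme sites was 1.49 times that of the list. These are ratios of raw summed reads, and LDHA alone had 8911 of the 30270. The median ratio per site was 41.1 for the enzymes and 31.3 over all sites with a normal IgG read. The sites of the enzymes had a median of 736 anti-RBM15 reads against 262 over all sites, and 7 of the 20 were among the 100 sites with the most anti-RBM15 reads, which were those of LDHA, ENO1, PKM, LDHB, PGK1, PFKL and GPI. None of these reads was scaled to transcript level.

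Of the 20 enzyme sites, 18 were in 3'UTRs (90.0%, 95% Wilson interval 69.9 to 97.2) and 2 in introns. Over all 1297 sites annotated to a part of a gene, 443 were in 3'UTRs (34.2%, 31.6 to 36.8). When a site was counted as 3'UTR only if at least 50% of it lay in annotated 3'UTR exons, the share was again 90.0% for the enzymes and 34.8% for all annotated sites. In the spliced canonical transcript the middle of the 18 sites lay 52 to 598 bases after the stop codon, with a median of 170. For 16 of the 18 it was under 300 bases after the stop codon (88.9%), compared with 283 of the 404 3'UTR sites that could be placed in this way (70.0%). The site of PDHA1 was nearest to the stop codon and that of HK1 farthest from it. In genes with long annotated 3'UTRs the middle of the site was nearer to the stop codon than to the annotated end. In PGK1 it lay 268 bases after the stop codon of a 3'UTR of 3468 bases, in IDH3A 106 of 2943 and in GPI 162 of 2380. How much of the annotated length is used in these cells was not tested. In the control library, GPI exon bin 054, which overlaps the site, had 2191 reads over 376 bases. GPI bin 059, downstream, had 111 reads over 1461 bases, and the IDH3A bins under its site had 0 reads.

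**Figure D2:**
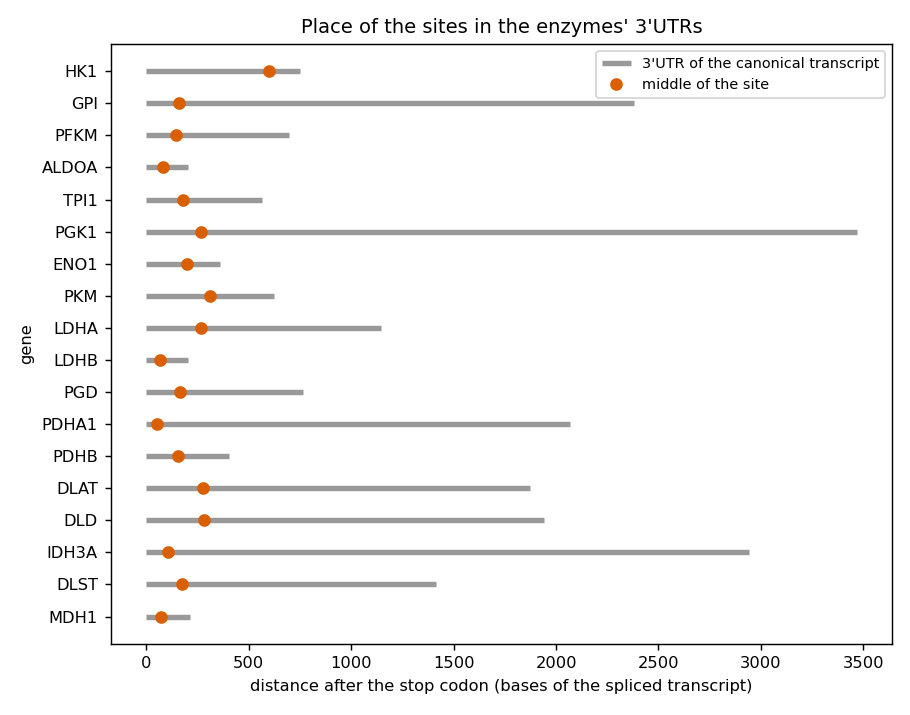
Place of the 18 enzyme sites in 3'UTRs. Each gray line is the 3'UTR of the canonical transcript from the stop codon at 0, each point is the middle of the site, and the x axis gives bases of the spliced transcript. The middle lies between 52 bases (PDHA1) and 598 bases (HK1) after the stop codon.

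The sequences under the sites were read from GRCh37 on the transcript strand, and a few are printed to show what kind of sequence the sites with the most reads hold. The run TTTTT, a U run in the RNA, was searched on the transcript strand only and counted once per site, and it was present in 11 of the 20 enzyme sites (55.0%). It was present in 10 of the 18 enzyme sites in 3'UTRs, compared with 319 of the 431 3'UTR sites of the list with a strand (74.0%) and 168 of the 760 intronic sites (22.1%). T made up 29.7% of the bases in the enzyme 3'UTR sites and 32.3% in all 3'UTR sites, so the enzyme sites were not richer in T. Windows of 30 bases around the longest run of T, in capitals, are given for 4 of the enzymes with the most reads and for the longest run, which was the 7 bases in PFKM.
LDHA, chr11:18429178-18429207, plus strand: cctagtccaacaTTTTTTcccagtgagtca
ENO1, chr1:8921172-8921201, minus strand: gcccaagtcattgTTTTTctcgcctcactt
PKM, chr15:72491433-72491462, minus strand: cctccaccttccaTTTTcccccactactgc
PGK1, chrX:77381527-77381556, plus strand: atcccatttgaaTTTTTTagtgactaaacc
PFKM, chr12:48539565-48539594, plus strand: gtgttttagctgTTTTTTTcattaggtttc
All 5 windows lie in the 3'UTR. The PKM site, with 3357 anti-RBM15 reads, held no run longer than 4 T, and the ALDOA, TPI1 and HK1 sites none longer than 3.

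The intronic sites differed from each other in base composition. The PFKL site, in intron 3 of the 21 introns of the canonical transcript, held 7.4% T, 41.6% A and 31.9% C, and 93 copies of CA. The LDHB site, in intron 5 of 7, held 37.2% T and 31 copies of CA. The window with the most CA in the PFKL site, with each CA in capitals, was the following.
PFKL, chr21:45731068-45731097, plus strand: CACAaaCACACACAtgCAgaCACACAgaCA

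Transcript levels were compared between enzymes as reads per kilobase of exon bins, scaled to library size (RPKM), because the files count a read in every bin it touches. Over all bins the highest levels in the control library were those of LDHB (630 RPKM), ENO1 (595), GAPDH (508) and ALDOA (268). Many narrow bins raise this measure, and over bins of at least 100 bases, an alternative chosen after the data had been seen, LDHB (470 RPKM), ENO1 (409) and GAPDH (383) stayed highest and ALDOA stood at 70.6. Wide annotated bins with few reads lower both measures. In ALDOA, bins 030 and 048, of 586 and 520 bases, had 30 and 55 control reads, while bin 045 of 119 bases had 4442. ENO1 bin 002 had 13781 over 425 bases, so the distance of ALDOA from ENO1 depends on the bins counted. ENO2, the neuronal enolase, was the lowest with 0.707 RPKM, or 150 reads.

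**Figure D3:**
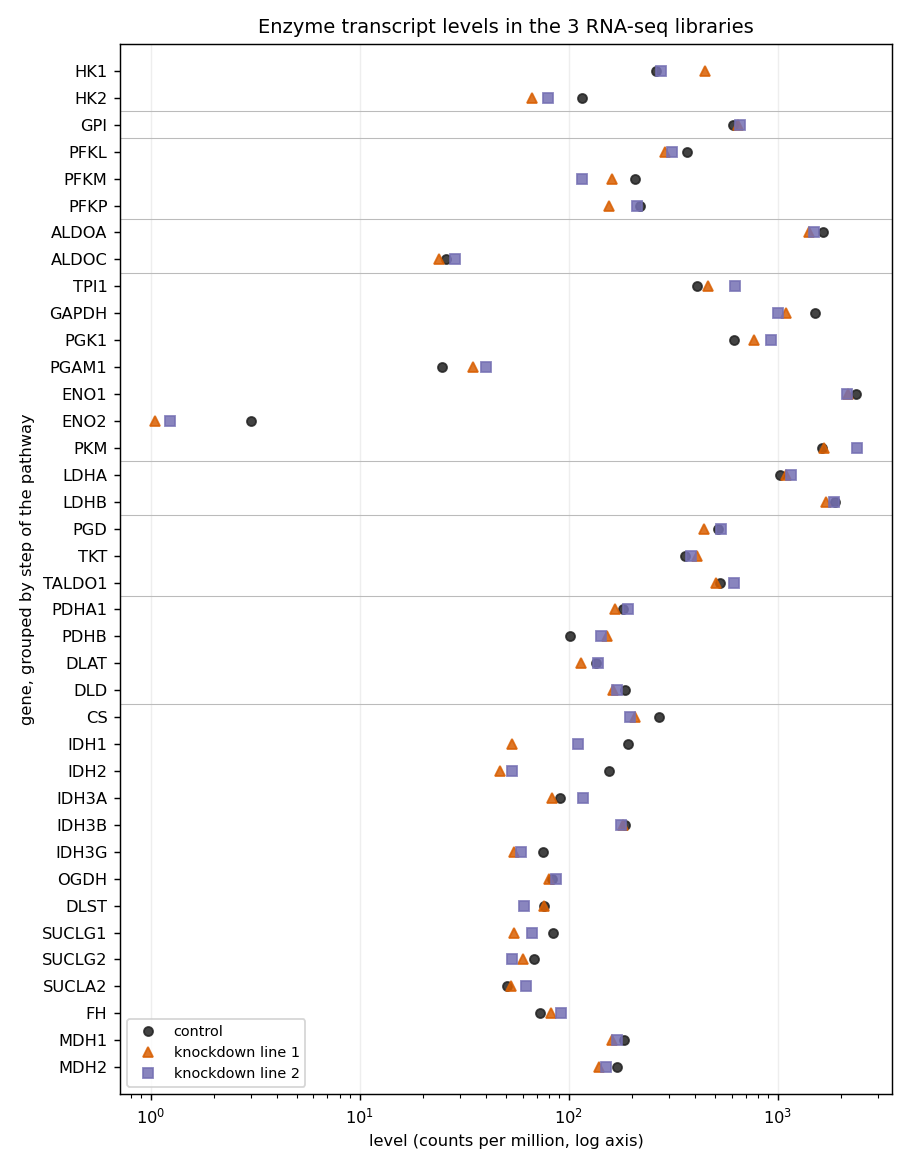
Level of each enzyme transcript in CPM (log axis) in the control library and the 2 knockdown lines, with genes grouped by step. IDH1, IDH2, HK2 and GAPDH show both knockdown lines to the left of the control, and PGK1, PGAM1 and TPI1 show both to the right.

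Among isoenzymes, the share of the summed RPKM of a set showed which form prevailed. LDHB made up 79.2% of the lactate dehydrogenase pair in the control and 76.4% and 77.1% in lines 1 and 2. The size of such a share depends on the annotated length, which was 6210 bases for LDHA and 2983 for LDHB. In bins under their 3'UTR sites, LDHA 052 had 4871 control reads over 303 bases and LDHB 001 had 10749 over 368. LDHB was thus higher there too, by a smaller margin. In the control, ENO1 made up 99.9% of the pair with ENO2, a share that leaves out ENO3 (4.48 RPKM), and ALDOA 96.8% of the pair with ALDOC. HK1 made up 69.0% of the hexokinase pair in the control, 87.0% in line 1 and 77.4% in line 2, so that HK2 had a smaller share in both lines. Each of these forms also prevailed over bins of at least 100 bases, where the control shares were 91.1%, 99.9%, 93.9% and 66.5%. For phosphofructokinase the measure mattered more. PFKM made up 24.5% of the 3 forms over all bins and 11.6% over wide bins, with PFKP (40.1%) leading on the first measure and PFKL (47.2%) on the second. IDH2 made up 57.7% of the pair with IDH1 in the control, 59.5% in line 1 and 45.0% in line 2. MDH2 held 56.0%, 54.1% and 54.8% of the pair with MDH1, and SUCLG2 62.3%, 58.5% and 51.4% of the pair with SUCLA2.

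No enzyme passed an adjusted p of 0.01 between knockdown and control, a limit that 0.346% of all 24887 genes passed. At an adjusted p of 0.05, which 1.74% of all genes passed, IDH2 alone fell and none rose. An unadjusted p of 0.05, passed by 18.8% of all genes, was passed by 8 of the 38 enzymes, 6 lower and 2 higher. With 0, 1 and 8 of 38, the enzymes were near the background at each of these limits. The median log2 fold change of the enzymes was -0.089, with 15 above 0 and 23 below, beside a median of 0.017 over all genes tested. For 30 of the 38 enzymes (78.9%) it was within 0.5 of 0, compared with 51.7% of all genes tested.

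IDH2, the mitochondrial NADP-dependent isocitrate dehydrogenase, had 7717 reads in the control, 2090 in line 1 and 2797 in line 2. These were 156, 46.6 and 53.5 CPM, and both lines lay far below the control. The log2 fold change was -1.64 (SE 0.22), to 32.2% of the control, with an adjusted p of 0.0120. By line it was -1.74 and -1.54. All 14 tested exon bins of IDH2, on chromosome 15 between 90626277 and 90645700 (GRCh37), had fewer CPM in both lines than in the control, and none was called for a change in usage. With DESeq2, with size factors in edgeR and without bins that overlap another gene, IDH2 passed the limit of 0.01 (adjusted p of 4.1e-05, 0.00528 and 0.00847).

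IDH1, the cytosolic and peroxisomal counterpart of IDH2, had 9472, 2385 and 5745 reads, or 191, 53.2 and 110 CPM. Both lines were below the control but differed from each other, with log2 changes of -1.85 in line 1 and -0.80 in line 2. The fit gave -1.23 (SE 0.36) with an adjusted p of 0.138. The 3 subunits of the NAD-dependent enzyme, which carries the main flux of the TCA cycle, had log2 fold changes of 0.15 (IDH3A), -0.06 (IDH3B) and -0.40 (IDH3G) with adjusted p of 0.381 to 0.915. None of IDH1, IDH2, IDH3B and IDH3G had a listed RBM15 site.

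**Figure D4:**
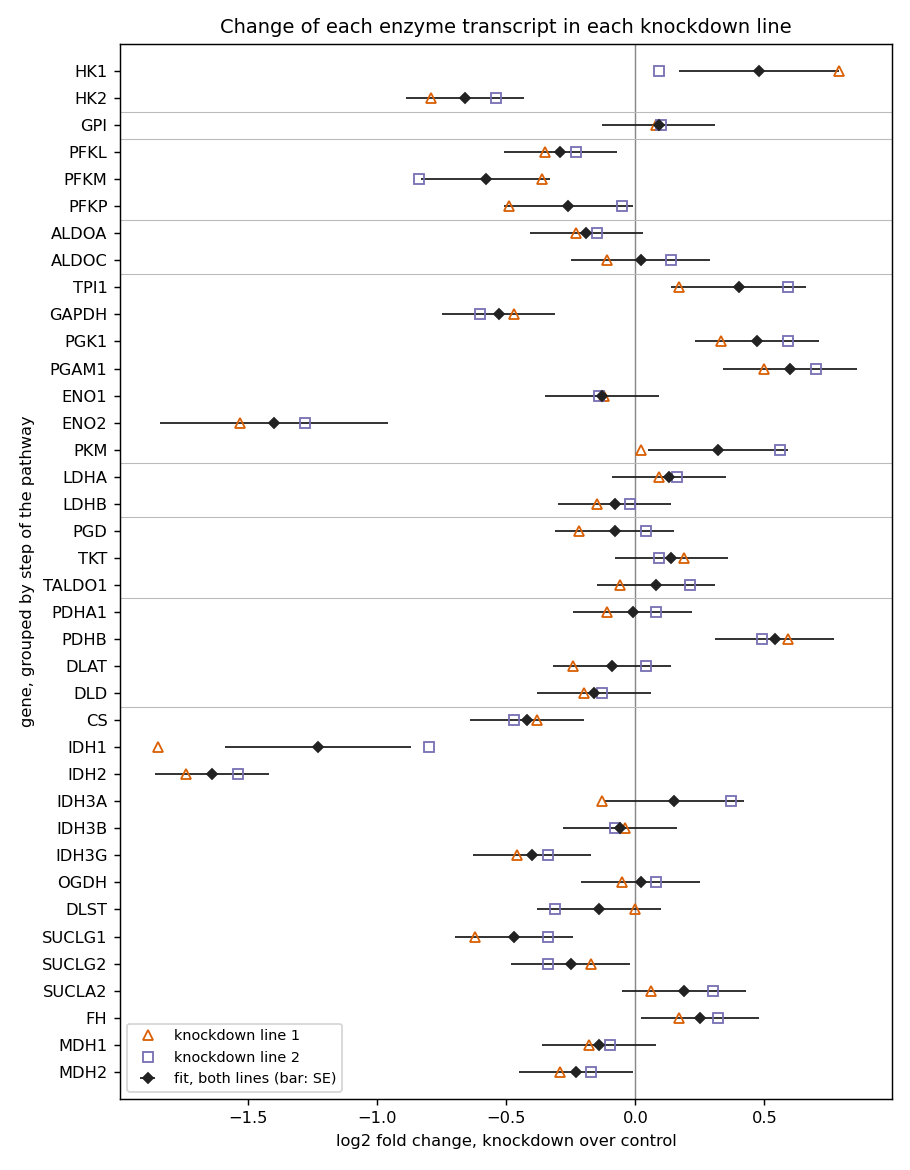
Log2 fold change of each enzyme transcript, knockdown over control. Black diamonds with bars give the fit over both lines with its SE, and open symbols give each line alone. IDH2 lies at -1.64, and 30 of the 38 enzymes lie within 0.5 of 0.

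Besides IDH2 and IDH1, the lowest changes in the same direction in both lines were those of ENO2, HK2 and PFKM. ENO2 had 150, 47 and 65 reads and a log2 fold change of -1.40 (SE 0.44, adjusted p 0.154). HK2, the inducible hexokinase of many tumors, had 115, 66.3 and 79.1 CPM and a change of -0.66 (SE 0.23, adjusted p 0.189). PFKM had 207, 161 and 116 CPM and a change of -0.58 (SE 0.25, adjusted p 0.265). None of the 3 passed the test, and both lines lay below the control for each by the rule of choice.

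The highest changes in the same direction in both lines were those of PGAM1, PDHB, HK1, PGK1 and TPI1. PGAM1, phosphoglycerate mutase, had 24.6, 34.8 and 40.1 CPM and a log2 fold change of 0.60 (SE 0.26, adjusted p 0.259). PDHB had 101, 152 and 142 CPM and a change of 0.54 (SE 0.23, adjusted p 0.251). HK1 had 260, 450 and 276 CPM, and its change of 0.48 (SE 0.31, adjusted p 0.431) came from line 1 with 0.79, while line 2 stood at 0.09. That the control was the lowest library for these genes was likewise fixed by the rule of choice. PGK1 had 613, 770 and 925 CPM (log2 0.47, SE 0.24, adjusted p 0.324), and TPI1 had 412, 463 and 621 CPM (log2 0.40, SE 0.26, adjusted p 0.437). None of the 5 passed the test.

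GAPDH, PKM and LDHA, enzymes often used as reference or tumor genes, did not pass either. GAPDH had 1512, 1091 and 996 CPM, a log2 fold change of -0.53 (SE 0.22, adjusted p 0.240), with both lines below the control. PKM had 1626, 1653 and 2398 CPM, so only line 2 stood apart, and the fit gave 0.32 (SE 0.27, adjusted p 0.569). LDHA had 1028, 1092 and 1151 CPM and a change of 0.13 (SE 0.22, adjusted p 0.802). Pseudogenes named after these enzymes can share reads with them. The 64 pseudogenes of GAPDH had 5.51%, 5.85% and 5.62% of the reads of gene and pseudogenes together, those of TPI1 10.7% to 11.0%, and those of PGAM1 7.36%, 6.53% and 4.90%.

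By step, the enzymes of lower glycolysis had log2 fold changes from -1.40 to 0.60, 4 above and 3 below 0. The 3 phosphofructokinases were all below 0, from -0.58 to -0.26, and the 3 pentose phosphate enzymes lay between -0.08 and 0.14. Of the 14 TCA cycle enzymes, 10 were below 0 and 4 above, with a median of -0.188, and citrate synthase (CS), the entry of the cycle, was at -0.42 with 269, 207 and 195 CPM. The 19 enzymes with an RBM15 site had a median log2 fold change of -0.08, with a range of -0.58 to 0.54, and the 19 without one a median of -0.25, with a range of -1.64 to 0.60. Over all 909 tested genes with a site the median was -0.17. Neither the only enzyme called at 0.05 nor the other 2 with changes beyond 1 on the log2 scale had a site.

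A wider list of 58 genes of the same pathways, of which 52 had enough reads, gave 1 gene called lower at an adjusted p of 0.01 and 1 more called higher at 0.05. Of all genes tested, 0.346% and 1.74% passed these limits. PCK2, the mitochondrial phosphoenolpyruvate carboxykinase, had 108, 18.7 and 23 CPM, fell by 2.38 on the log2 scale (SE 0.24) and had an adjusted p of 0.00385. TIGAR, a phosphatase that lowers fructose 2,6-bisphosphate, had 29 reads in the control, 158 in line 1 and 212 in line 2 and rose by 2.69 (SE 0.48, adjusted p 0.0319). ENO3, the muscle enolase, had 19.2, 6.09 and 8.88 CPM (log2 -1.36, adjusted p 0.0877) and DERA, a deoxyribose phosphate aldolase, 28.2, 11.5 and 13.2 CPM (log2 -1.19, adjusted p 0.0755). PDK4, TKTL1 and PCK1 had the highest fitted changes but only 1, 2 and 6 reads in the control, against 32 and 13, 18 and 23, and 66 and 11 in the lines, and none passed the test. Of the 58 genes, 8 had a site, all in 3'UTRs, among them SDHA with 4 reads in normal IgG and 220 in anti-RBM15 and ACLY with 2 sites. A site was listed for 3.65% of all genes tested and 19.4% of those with at least 100 CPM in the control.

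Exon usage was tested on 1140 exon bins in 37 of the enzymes, since ENO2 had too few bins with 30 reads. At the limits of an unadjusted p of 0.05 and a fold of 1.2, 15 bins in 12 enzymes were called, 9 used more and 6 used less, against 1.45% of all 234192 bins, and the 15 of 1140 are 1.32%. At an adjusted p of 0.05, which 0.0205% of all bins passed in diffSpliceDGE of edgeR, no enzyme bin was called there. The smallest adjusted p of an enzyme bin was 0.666. In a DEXSeq-type model 2 enzyme bins passed an adjusted p of 0.05, and the share of all bins that did so was not computed. At the unadjusted limits, the share of enzyme bins called was thus near the background. The 15 bins were mostly thin, with fewer than 100 reads in every library for 10 of them and at most 256 in any.

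PKM makes 2 messages that differ in 1 of a pair of mutually exclusive exons of 167 bases each, and the choice between them sets the form of pyruvate kinase, PKM1 in muscle and brain and PKM2 in most dividing cells. In GRCh37 the PKM1 exon lies on chromosome 15 from 72495363 to 72495529 and the PKM2 exon from 72494795 to 72494961, on the minus strand. The exons are 62.9% identical, with 62 differing bases, and the stretch from base 54 to base 83 of each exon, with the differing bases in capitals, shows why reads can be assigned to one or the other.
PKM1, chr15:72495447-72495476, minus strand: TGTGcgAGCCTcAAGTCACTccaCAgaccT
PKM2, chr15:72494879-72494908, minus strand: CCGCcgCCTGGcGCCCATTAccaGCgaccC

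The PKM1 exon had 479 reads in the control, 438 in line 1 and 612 in line 2. The PKM2 exon is cut into 2 bins, and the bin with the more reads had 1842, 1727 and 3122. Since a read over both bins was counted in each, the share of the PKM1 exon lies between its share against the sum of both bins and its share against the larger bin. It lay between 11.5% and 20.6% in the control, between 11.3% and 20.2% in line 1 and between 9% and 16.4% in line 2. Against the larger bin the 95% Wilson intervals were 19 to 22.3, 18.6 to 22.0 and 15.2 to 17.6, which cover counting error in single libraries only. The PKM2 exon was the more used in all 3 libraries. The relative log2 fold changes were -0.16 for the PKM1 exon and 0.06 and 0.09 for the PKM2 bins, and none was called (unadjusted p 0.617 for the PKM1 exon). The PKM bin with the smallest p was 018, a stretch of 416 bases at 72498600 to 72499015 that a single annotated transcript holds. Its reads were 86 in control cells, 35 in line 1 and 49 in line 2, with a relative log2 fold change of -1.32, an unadjusted p of 0.00425 and an adjusted p of 1.000, whereas the DEXSeq-type model gave an adjusted p of 0.0319.

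**Figure D5:**
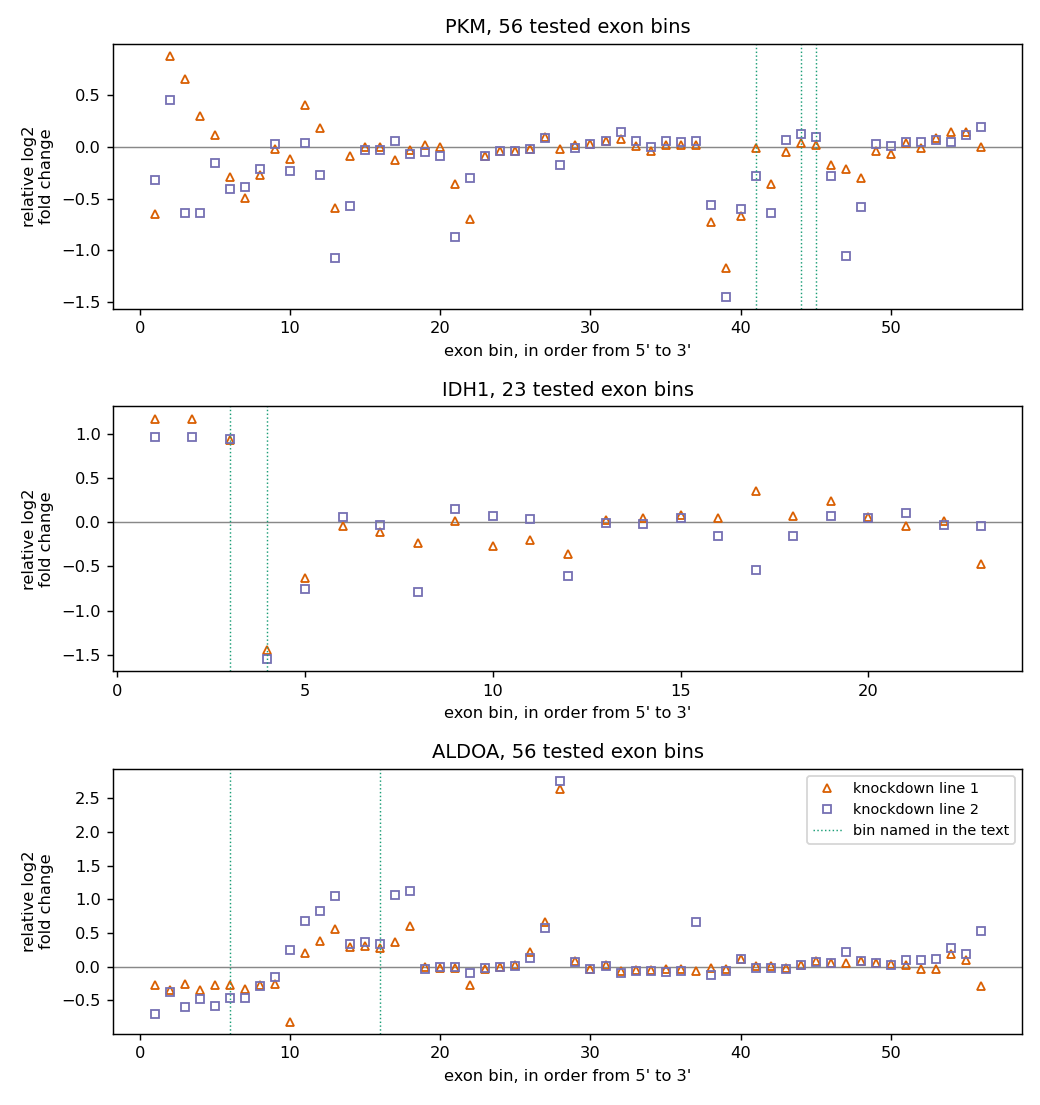
Relative log2 fold change of each tested exon bin of PKM, IDH1 and ALDOA in each knockdown line, in order from the 5' to the 3' end. Dotted lines mark the alternative exons of PKM (-0.16, 0.06 and 0.09) and the bins at the start of IDH1 (0.95 and -1.49) and of ALDOA (-0.37 and 0.31).

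At the 5' end of IDH1 and ALDOA, neighboring annotated first exons had relative changes of opposite sign in both lines, a pattern picked after its values were seen. In IDH1, bin 020 (209118755 to 209119046 on chromosome 2) had 261 control reads, 24 reads in line 1 and 54 in line 2, whereas bin 023 from 209119663 to 209119783, in the first exon of the canonical transcript, had 182, 87 and 211. Of the reads of these 2 bins, bin 020 held 58.9% (54.3 to 63.4) in the control, 21.6% (15 to 30.2) in line 1 and 20.4% (16 to 25.6) in line 2. These intervals cover counting error only, and each is of 1 library. The relative log2 fold changes were -1.49 for bin 020 and 0.95 for bin 023, with unadjusted p of 0.0541 and 0.186 in diffSpliceDGE, where neither was called, and the DEXSeq-type model gave bin 020 an adjusted p of 0.00162.

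In ALDOA, bin 025 (30075755 to 30075817 on chromosome 16) had 1229, 783 and 843 reads, and bin 037 from 30077197 to 30077248, in the first exon of the canonical transcript, had 1010, 944 and 1212. Bin 025 held 54.9% (52.8 to 56.9) of the reads of both bins in the control, 45.3% (43.0 to 47.7) in line 1 and 41.0% (38.9 to 43.2) in line 2, likewise with intervals of counting error only. Neither bin was called, with relative log2 fold changes of -0.37 and 0.31. Bin 034 in the same first exon, of 14 bases and with 80, 91 and 158 reads, was called (0.83, unadjusted p 0.0115, with 0.56 in line 1 and 1.05 in line 2). The bin with the smallest p of all enzymes, ALDOA 049 of 45 bases, had 3, 15 and 20 reads (2.70, unadjusted p 7.2e-04).

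Other bins among the 10 with the smallest p were in TKT, PDHA1, MDH2, LDHB, GPI, PFKP and GAPDH. TKT 002 had 35, 106 and 60 reads (relative log2 fold change 1.17) and PDHA1 005, of 14 bases, had 35, 6 and 19 (-1.46). MDH2 007 had 75, 79 and 161 reads (0.90) and LDHB 018 had 13, 33 and 32 (1.43). GPI 059, 1461 bases long from 34891601 on chromosome 19, had 111, 149 and 256 reads (0.78), and it begins downstream of the RBM15 site of GPI, which ends at 34891250. PFKP 006, of 9 bases, had 22, 7 and 7 reads (-1.34), and GAPDH 013 had 52, 59 and 64 (0.80). By line, the relative log2 fold changes were 1.55 and 0.61 for TKT 002 and -2.27 and -1.04 for PDHA1 005. They were 0.51 and 1.2 for MDH2 007 and 0.49 and 1.03 for GPI 059, so the size of these depended on the line. The sign was the same in both lines, which the choice of bins by smallest p favors. The remaining called bins were IDH3G 025, ALDOA 039, PFKP 005, TALDO1 005 and CS 073, with unadjusted p of 0.0446 to 0.0499. The first tested bins at the 5' ends of HK1 (019), PFKM (001) and ALDOA (020) had relative log2 fold changes of -0.35, 0.10 and -0.49 and were not called.

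Under the RBM15 sites themselves, usage stayed close to that of the rest of the gene. Of 58 exon bins that overlapped an enzyme site, 54 in 17 enzymes were tested. None was called at an unadjusted p of 0.05 and a fold of 1.2 in diffSpliceDGE of edgeR, and likewise 0 in the DEXSeq-type model. Of all bins, 1.45% and 2.21% were called in these, so 0 of 54 is near the background and says little about the sites. The relative log2 fold changes of the 54 tested bins ran from -0.16 to 0.29 with a median of 0.03. The IDH3A bins under its site had 0 reads in every library and were not tested.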

How the data were processed

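RNA-seq of 3 MEG-01 libraries and RIP-seq of 4 were analysed. RNA-seq reads, paired and without strand, had been mapped by the authors to GRCh37 (STAR, Ensembl GRCh37.70 models), and raw counts per exon bin were deposited. RIP-seq reads had been trimmed (Trimmomatic) and mapped to hg19 (STAR), peaks had been found on pooled coverage and their counts compared with DESeq. The authors deposited raw counts of 1515 significant sites with RefSeq classes. The tables also hold the authors' fold changes and p-values, which were not used. A read over several bins is counted in each, so sums per gene and narrow bins carry extra counts. Lines that name no gene held 23.2% to 32.0% of counts and were left out of library sizes and tests, and 809 lines of the deposited exon table were not used here.

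Counts per bin were summed per gene and tested with edgeR 4.0.16 (TMM, quasi-likelihood test, R 4.3.3) over the 24887 genes whose counts summed to 30 or more, with Benjamini-Hochberg adjustment over all of them. Exon usage was tested with diffSpliceDGE on 234192 bins of at least 30 counts, and DEXSeq was not used here. DESeq2 1.42.0 gave alternative tests. Scripts were tested on simulated data. With 1 control, the spread came from the 2 knockdown lines, and differences between control cultures cannot be told apart from the knockdown. The 2 lines are separate cultures with different hairpins, each with 1 library, so the spread holds differences between hairpins and lines as well as technical ones. Symbols came from GENCODE v44 lifted to GRCh37, matched by identifier for 54481 of 62238 genes, and site symbols by current or older symbol (PKM is PKM2 in the list) for 910 of 1014. The 38 enzymes, the wider list, the markers and the tests were chosen with earlier results of these data known. All enzymes could be named. Full values were given for those at an adjusted p under 0.05, the 5 highest and 5 lowest changes with the same sign in both lines, GAPDH, PKM, LDHA and IDH2, for the 10 bins with the smallest p, and for the 3 highest and lowest changes of the wider list. Intervals of 95% (Wilson for shares, exact for ratios) cover counting error only. Alternatives were size factors, DESeq2, no filter, other minimum counts, bins without overlap, each line left out, and other definitions of sites.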

Additional observations from a re-analysis of the deposited data

Results flagged for a closer look

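In data outside the comparisons, the unassigned RIP-seq library XZ4 had 26501 reads summed over the 20 enzyme sites, far above the 715 of the normal IgG library and near the 30270 of the anti-RBM15 library. The other unassigned library, XZ5, had 785. XZ4 had more reads than normal IgG at all 20 sites, among them LDHA (9243 against 125), PKM (3461 against 154) and ENO1 (3255 against 62), and it had more reads than XZ5 at each of the 1515 listed sites, a count that the filter of the list largely fixes, since the deposited comparison placed XZ4 on the RBM15 side and XZ5 on the control side. The label of XZ4 names normal immunoglobulin and that of XZ5 names the RBM15 antibody, so neither was used as a replicate, and which antibody was used was not tested.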

How the results depend on the processing

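No paired analysis was possible because the control and knockdown libraries share only 1 replicate number. Of 0 enzymes called at an adjusted p of 0.01, the count moved to 1 with size factors, 1 with DESeq2, 1 without bins that overlap another gene (added after seeing the data) and 2 with no filter on low counts, and to 1 at an adjusted p of 0.05. The 1 was IDH2 each time, and without the filter IDH1 (-1.35, adjusted p 0.00111) was added. Over all genes, the count at 0.01 also moved, from 86 to 191 with size factors and 484 with DESeq2, of 24887 tested. It was 112 of 24236 without bins that overlap another gene and 801 of 53542 with no filter. At 0.05, 1.74% of all genes passed. The median log2 fold change of the enzymes was -0.22 with no filter, where the median of all genes shifted to 0.44, and -0.14 to -0.04 when a line was left out. LDHA changed sign to -0.01 with no filter. Enzyme exon bins called numbered 25 of 1408 at a minimum count of 1 (1.78%, against 1.77% of all bins). At a minimum count of 300 they numbered 4 of 790 (0.506%, against 0.880% of all bins). In the DEXSeq-type model they numbered 29 of 1140 (2.54%, against 2.21% of all bins). PFKM bin 001 ranged from -0.49 to 0.65 when a line was left out. The ratio of reads at the enzyme sites was 1.49 when divided by that over all sites. Of 301 values recomputed, 255 kept their side of the threshold or, where there was no test, stayed within a tolerance (the SE or SD, the counting interval, 1.5 times for counts, the same side of an equal share for isoenzymes), and 2 changed sign. With 1 library per antibody, no error between replicates can be given for the sites. The cause of these shifts was not tested.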
